A study of Homo sapiens with 8 samples.

Results

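U2OS cells, an established human osteosarcoma line, were compared with and without a knockdown of WSB2 in the absence of TNF-α. The comparison holds 4 of the 8 libraries of the series, 2 from cells with a control shRNA (shControl, control cells) and 2 from cells with a WSB2 shRNA (shWSB2, KD cells). Libraries were chosen by their labels alone. Of 58735 genes in the deposited table, all 16528 that passed a limit on low reads were tested. The other 4 libraries carry the same pair of shRNAs after 5 h of TNF-α, and they served for the shared estimate of the spread and for a comparison at the end. All cells had been infected with lentivirus and selected with puromycin to give stable lines, and the sources used here do not say which WSB2 hairpin these libraries carry. The labels do not say that replicates were separate cultures, so the p-values measure the spread between these libraries, which may be technical.

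WSB2 carries WD40 repeats and a SOCS box. Proteins with a SOCS box bind elongin B and elongin C and, through them, cullin 5 with its RING partner RNF7, and the assembled ligase attaches ubiquitin to the protein held by the SOCS-box member, often for destruction by the proteasome. The study is about RelA, the transactivating subunit of NF-κB, as a substrate of such ligases on chromatin after TNF-α. Without TNF-α most RelA is held in the cytoplasm by IκB proteins, and the unstimulated comparison asks what WSB2 loss does to the transcriptome at that resting state.

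The 4 libraries held between 15601098 and 16836522 reads. Composition set the KD libraries apart from the controls and from all 4 libraries with TNF-α. Reads fell on 26225 and 26397 genes in the KD libraries and on 22072 to 22957 genes in the other 6. The library size behind the FPKM values was 1.21 times the read total in the KD libraries, against 0.925 to 1.03 times in the other 6. Mitochondrial transcripts took 4.10% and 4.42% of KD reads and 2.02% and 2.03% of control reads. The average read came from a gene with 49.9% and 49.4% GC in KD libraries and with 52.97% and 52.52% GC in control libraries. The osteosarcoma label was checked on 6 mesenchymal genes. COL1A1, SPARC and VIM stood between 145.8 and 293.2 FPKM in all 4 libraries, while COL1A2 did not pass 0.0588 FPKM. RUNX2 and ALPL, of the osteoblast lineage, stood at 1.66 to 2.94 and 1.22 to 3.33 FPKM. Of 22 markers of epithelial, immune, blood, endothelial, liver and neural cells, 20 stayed under 1 FPKM in all 4 libraries and 3 were at 0 in all 4. KRT14 was the highest of them at 24.4 and 16.9 FPKM in control and 13.2 and 12.9 FPKM in KD libraries, and the sum over the 22 ranged from 20.52 to 28.54 FPKM in control and from 16.46 to 16.55 FPKM in KD libraries.

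The change after WSB2 knockdown followed the base composition of genes. All changes are log2 fold changes (log2 FC) of FPKM + 1, KD over control, where FPKM is the number of fragments per kilobase of gene, scaled to library size. With genes in 10 equal bins, in the bin of lowest GC content (23.1 to 38.7%), the median log2 FC was 0.64 and 77.7% of genes were called higher, a call being a Benjamini-Hochberg adjusted p under 0.05 in limma. In the bin of highest GC content (61.5 to 83.9%), the median was -0.62 and 69.0% of genes were called lower. Gene length gave a smaller slope, with medians of -0.22 in the bin of genes with 1336 to 2250 bases and 0.25 in the longest bin (10271 to 205012 bases). Across genes, which are not independent replicates, Spearman's rho of the log2 FC was -0.68 with GC content and 0.28 with length. The same comparison after TNF-α had no such slope, with medians between -0.02 and 0.01 over all bins. Replicates differed along the same axis to a lesser degree, with a rho with GC content of 0.31 for the first control library against the second and of 0.40 for the first KD library against the second.

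**Figure D1:**
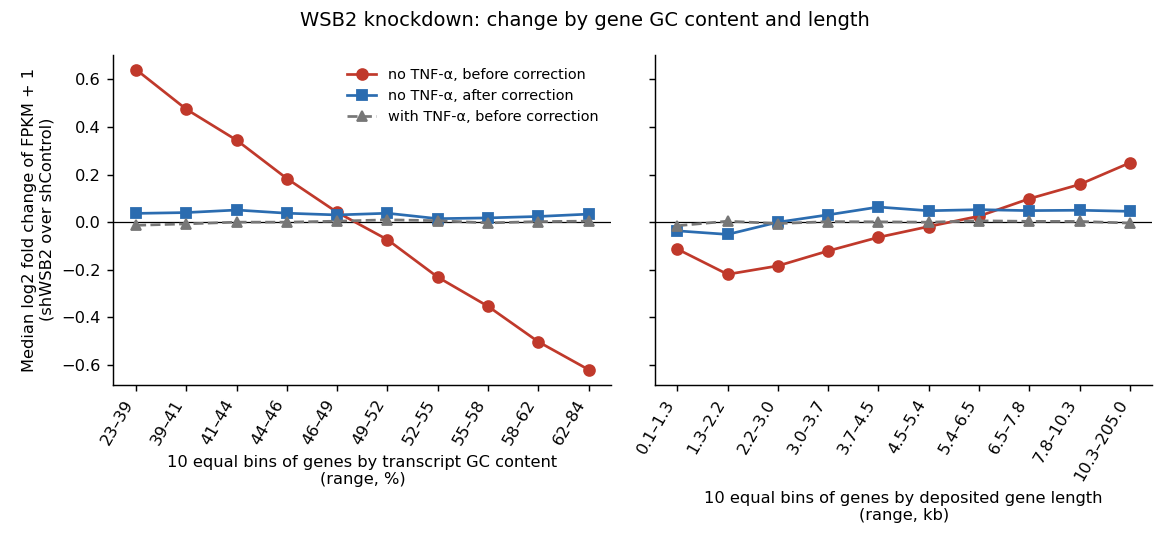
Median log2 fold change of FPKM + 1 (vertical axis) in 10 equal bins of the tested genes ordered by transcript GC content in percent (left) and by deposited gene length in kb (right). Red circles are the WSB2 knockdown without TNF-α as deposited, blue squares the same after correction and grey triangles the knockdown with TNF-α; the red line falls from 0.64 to -0.62 across GC content, and the blue line stays between 0.01 and 0.05.

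Each result is therefore given before and after a correction in which the FPKM values of a library are divided by a smooth trend of its reads on GC content and gene length. The correction took away 56.4% of the variance of the log2 FC, and the SD of the log2 FC over genes fell from 0.636 to 0.420. The medians of the bins then lay between 0.01 and 0.05 for GC content and between -0.05 and 0.06 for length. A response of the cells that follows GC content or length is taken away as well, and such a response and a difference between library preparations cannot be told apart here. With TNF-α the same correction took away 0.176% of the variance.

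WSB2 was read first as the check of the labels. WSB2 (ENSG00000176871, GRCh38 chromosome 12, 118032694 to 118062430, minus strand) stood at 27.7 and 28.0 FPKM in control and 8.38 and 8.52 FPKM in KD libraries. The groups were far apart and each pair of replicates was close. The log2 FC was -1.61 ± 0.0685 (SE, n = 2 libraries a group, limma adjusted p = 0.000119) before and -1.47 ± 0.055 (adjusted p = 0.000119) after correction. With TNF-α it was -1.39 (adjusted p = 0.0003), and the difference between the conditions, -0.08, was not called (adjusted p = 0.481).

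Of 33 genes of the cullin 5 ligase and its SOCS-box members, 5 were higher and 7 lower after correction, WSB2 among the latter (8 and 14 before), with a median of 0.04 beside 0.03 over all genes. These counts are 15.2% and 21.2% of the list, near the 21.2% and 18.1% over all genes. Under scaling to total reads 13 were higher and 5 lower, beside 6795 and 1433 of 16520 genes. CUL5, the scaffold of the ligase, stood at 2.05 and 1.92 FPKM in control and 7.18 and 7.11 FPKM in KD libraries, and its rise shrank from 1.45 to 0.55 (adjusted p = 0.00477) with the correction. RNF7, its RING subunit, stood at 26.9 and 19.7 against 14.99 and 14.19 FPKM and fell in both readings, with log2 FC of -0.62 before and -1.10 (adjusted p = 0.00118) after correction. The scaffold and the RING subunit thus lay on opposite sides of the controls in both readings. ELOB, elongin B, fell (-1.46 and -0.63) and NEDD8, the small modifier that activates cullins, fell too (-0.84 and -1.197), where paired values here and later are the log2 FC before and after correction. The paralogue WSB1 stood at 3.001 and 3.63 against 7.03 and 7.46 FPKM, a log2 FC of 0.94 before and 0.29 (adjusted p = 0.0434) after correction, and the latter call was lost on leaving out any 1 of the 4 libraries (0.27 to 0.31).

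RELA itself stood at 27.3 and 28.9 FPKM in control and 16.3 and 15.8 FPKM in KD libraries. It was lower before correction (-0.77, adjusted p = 0.000183) and was not called after it (-0.17, adjusted p = 0.0985), where scaling to total reads turned the sign to 0.10. Without the first control library the corrected value was -0.25 and was called. Among 17 genes of RelA and the enzymes that modify it, 7 were higher and 5 lower after correction, with a median of 0.07, and 9 were higher and none lower under scaling to total reads in limma. PRMT5, an arginine methyltransferase, fell, with log2 FC of -0.83 before and -0.39 (adjusted p = 0.00271) after correction, a call that scaling to total reads took away (-0.12). SETD7, the lysine methyltransferase also called Set9, rose by 1.03 before and 0.44 (adjusted p = 0.013) after it, and lost the second call without either KD library (0.41 and 0.47).

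**Figure D2:**
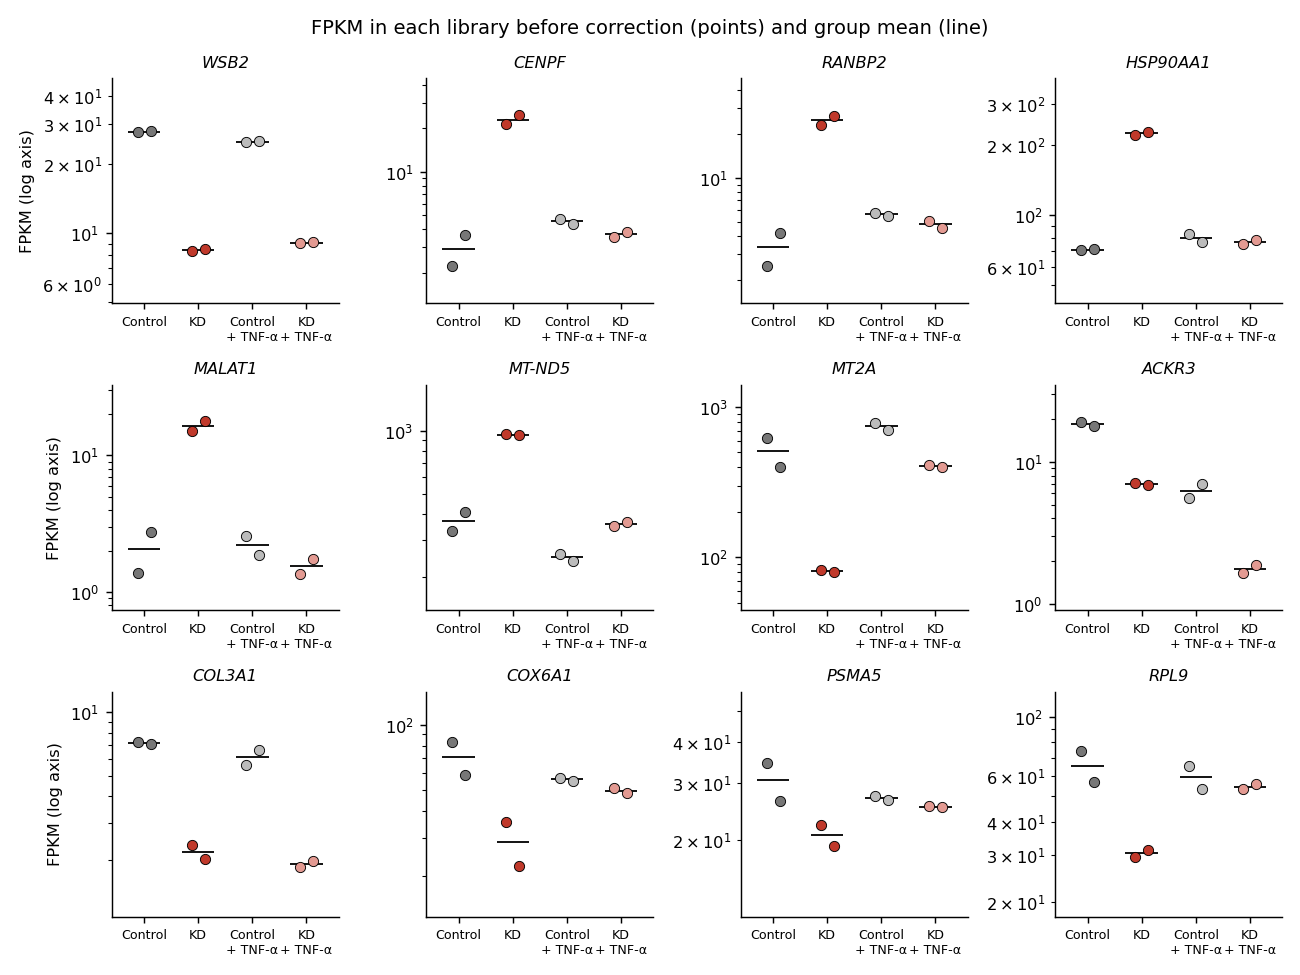
FPKM as deposited, on a log axis, in each of the 8 libraries (points, 2 a group) for 12 genes, with the mean of each group as a line; groups are control and KD cells without and with TNF-α. For CENPF, RANBP2, HSP90AA1 and MALAT1 the unstimulated KD libraries stand alone above the other 3 groups, for RPL9, COX6A1 and PSMA5 alone below, and for WSB2, ACKR3 and COL3A1 KD lies below control both without and with TNF-α.

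Over all genes, 4932 (29.8%) were higher and 4996 (30.2%) lower before correction, and 3503 (21.2%) were higher and 2988 (18.1%) lower after it. With an absolute log2 FC above 1 as a further condition, 1128 (6.82%) were higher and 838 (5.07%) lower before, and 267 (1.62%) were higher and 233 (1.41%) lower after. Of the 9925 genes called before, 2550 were higher and 1973 lower in both readings, 2143 higher and 2843 lower genes were no longer called, and 416 turned direction. A further 1552 genes were called after correction alone. Adding 1 to the FPKM shrinks the log2 FC of scarce transcripts, and 4898 of the tested genes had a mean level under 1 FPKM. The balance of directions moved with the limit on low levels, the form of the correction and the scaling of the libraries. Among genes with a mean of at least 1 FPKM, 2159 were higher and 3193 lower after correction (40.3% higher calls, median -0.05). With the trend subtracted from log2(FPKM + 1) instead, 4047 were higher and 4552 lower (47.1% higher calls). When each library was scaled to its read total, the median over all genes moved from 0.03 to 0.20 after correction, with 6795 genes higher and 1433 lower, so that 82.6% of the calls were higher ones instead of 54%. Before correction the same step moved the median from -0.001 to 0.132 and the share of higher calls from 49.7% to 65.3%. Gene list counts stand beside 29.8% higher and 30.2% lower of all genes before correction and 21.2% and 18.1% after it. Under scaling to total reads they stand beside 6795 higher and 1433 lower of 16520 genes, with a median of 0.198. A list median that turns sign there crosses 0, while the median over all genes moves up as well. Each count also moved with single libraries. After correction, leaving out the second KD library left 1829 higher and 1665 lower genes and leaving out the first KD library 2213 higher genes, and without the second control library 4071 were higher and 3465 lower. Because these are bulk libraries, fewer cells of a kind and less RNA per cell cannot be told apart.

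**Figure D3:**
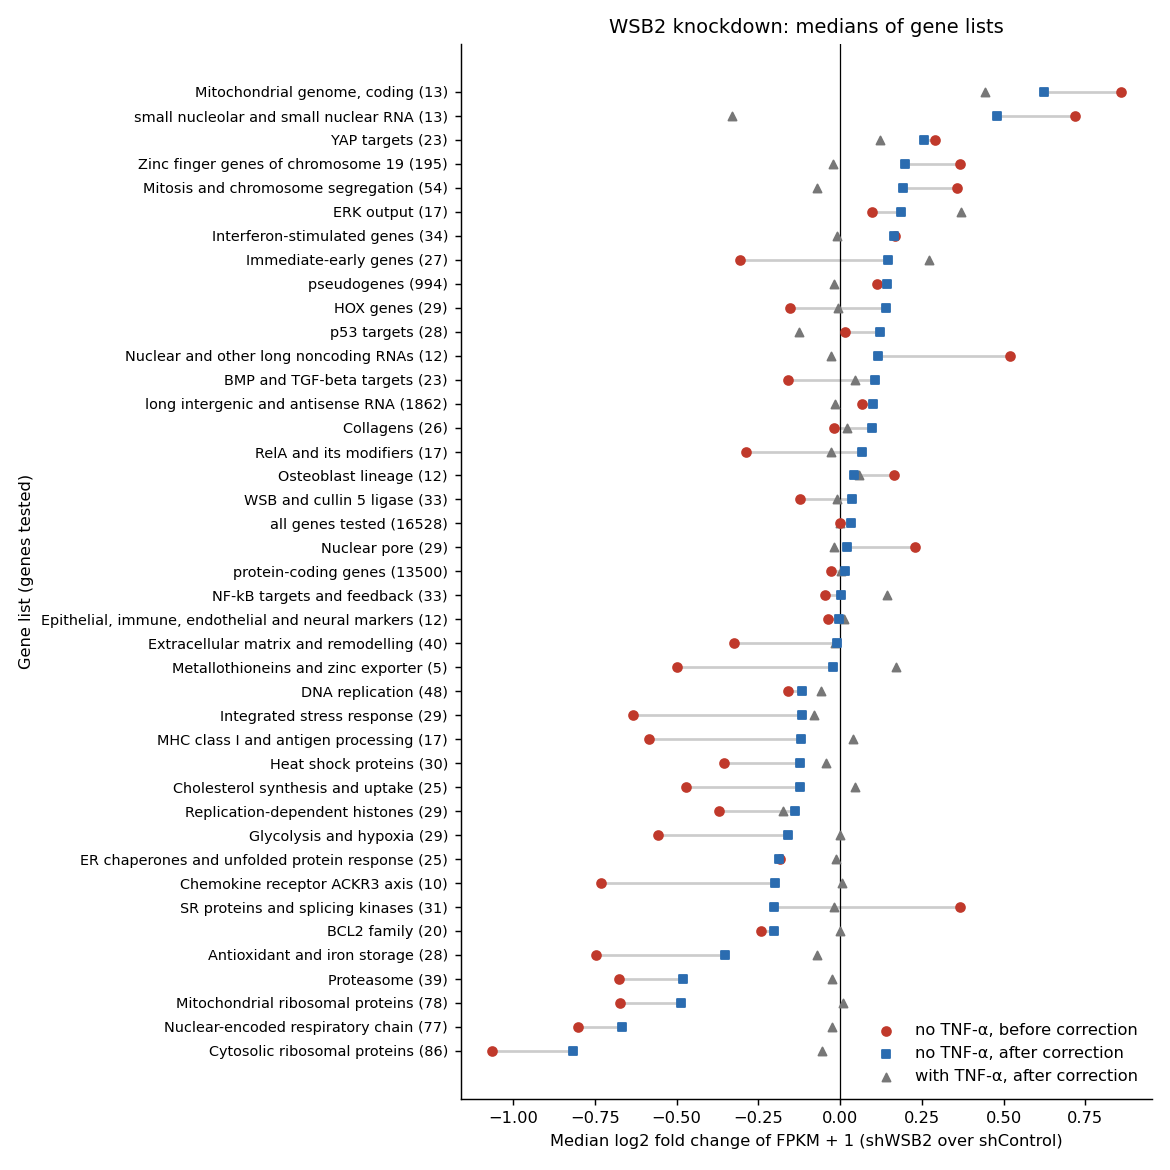
Median log2 fold change of FPKM + 1 over the tested genes of each gene list with at least 5 of them (number tested in brackets), with red circles before and blue squares after correction for the knockdown without TNF-α and grey triangles for the knockdown with TNF-α after correction. Mitochondrial coding genes lie highest at 0.62 and cytosolic ribosomal proteins lowest at -0.82. Scaling to total reads turns the sign of the blue median for 14 of the 40 lists. It also moves the median over all genes from 0.03 to 0.198, so a turn is a crossing of 0 and not of that median. The 5 lists that stay below 0 are those of the 2 kinds of ribosomal proteins, the respiratory chain, the proteasome and antioxidant genes.

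Of 54 genes of mitosis and chromosome segregation, 26 were higher and 11 lower after correction (28 and 18 before), and the list's median was 0.19. These counts are 48.1% and 20.4% of the list, beside 21.2% and 18.1% over all genes. The share of lower genes was thus near that over all genes. Under scaling to total reads 36 were higher and 6 lower. CENPF (ENSG00000117724, chromosome 1, 214603195 to 214664588), a large kinetochore protein, stood at 2.22 and 3.66 FPKM in control and 21.4 and 24.5 FPKM in KD libraries, with log2 FC of 2.63 ± 0.169 (adjusted p = 0.000119) before and 1.75 ± 0.104 (adjusted p = 0.000336) after correction. All 4 libraries with TNF-α lay between 3.54 and 4.74 FPKM, near the controls. TOP2A, the topoisomerase that untangles chromosomes, stood at 20.7 and 28.3 against 106 and 118 FPKM, and rose by 2.16 before and 1.27 after correction. CENPE, a kinetochore motor, rose by 2.38 and 1.34. Against these, CCNB1, the cyclin of mitotic entry, fell from 164 and 140 to 107 and 110 FPKM, with log2 FC of -0.48 and -0.81, and UBE2C, a ubiquitin-conjugating enzyme of the anaphase-promoting complex, fell (-0.76 and -0.49). SPC25, a small kinetochore subunit, was not called before (-0.18, with 0.09 under scaling to total reads and a call at -0.30 without the second control library) and fell by 0.83 after correction. The 26 higher genes had a median length of 5755 bases, 38.9% GC and 5.03 FPKM in control cells, and the 11 lower ones 2558 bases, 47.8% GC and 58.7 FPKM. The 17 genes not called had 3605 bases, 48.4% GC and 38.7 FPKM. Over all genes the higher ones had a median of 5040 bases, 46.3% GC and 1.42 FPKM and the lower ones 4042 bases, 47.3% GC and 14.9 FPKM. Of 48 replication genes 8 were higher and 15 lower after correction, with a median of -0.12 that turned to 0.14 under scaling to total reads (18 higher and 5 lower). RFC1, the large subunit of the clamp loader, rose by 1.51 and 0.90, GINS1, of the replicative helicase, fell (-0.31 and -0.80), the first call being lost without any of 3 libraries (the second control, -0.17, or either KD library, -0.35 and -0.26) and under scaling to total reads (-0.04), and TK1, thymidine kinase, fell from 298 and 233 to 121 and 104 FPKM (-1.22 and -0.31), the latter not called under scaling to total reads (-0.03). Cells in each phase were not counted, and whether the share of mitotic cells differed was not tested.

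RANBP2, a nucleoporin of the cytoplasmic filaments, stood at 2.49 and 4.17 FPKM in control and 22.99 and 26.7 FPKM in KD libraries (log2 FC 2.60 before, 1.56 after, adjusted p = 0.000367). TPR, a nucleoporin of the nuclear basket, stood at 2.67 and 4.46 against 21.6 and 25.5 FPKM (2.45 and 1.48). These were the largest changes of 29 nuclear pore genes, and NUP93, of the inner ring, fell (-0.64 and -0.93). Of the 29 genes 6 were higher and 7 lower after correction (12 and 5 under scaling to total reads). These 6 and 7 are 20.7% and 24.1% of the list, near the 21.2% and 18.1% over all genes. HSP90AA1, the inducible HSP90 chaperone, rose from 70.9 and 71.2 FPKM to 221 and 228 FPKM, by 1.65 before and 1.46 ± 0.0561 (adjusted p = 0.000119) after correction. Its constitutive paralogue HSP90AB1 had a log2 FC of -0.35 and -0.16 and was not called, except before correction without either control library (-0.34 and -0.37), and scaling to total reads turned the second value to 0.12. Over 30 heat shock genes 6 were higher and 10 lower after correction, with a median of -0.12 that turned to 0.16 under scaling to total reads (12 higher and 5 lower).

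Of a list of 18 long noncoding RNAs, most of them known from the nucleus, 12 could be tested. MALAT1, NEAT1, TUG1 and NORAD were higher and none was lower after correction in limma, with 7 higher and 1 lower before. MALAT1, a component of nuclear speckles, stood at 1.38 and 2.76 FPKM in control and 15.02 and 17.9 FPKM in KD libraries, and rose by 2.54 before and 1.75 ± 0.182 (adjusted p = 0.000766) after correction. NEAT1, the scaffold of paraspeckles, rose by 1.65 and 0.96, and TUG1 by 1.803 and 1.1999. NORAD, which is mainly cytoplasmic, rose by 1.12 and 0.52 (adjusted p = 0.0367), and its corrected call was lost without either KD library (0.50 and 0.54). MALAT1 with TNF-α stood between 1.35 and 2.56 FPKM in all 4 libraries, and its difference between the conditions was 2.09 (adjusted p = 0.00434).

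Of 86 tested genes for cytosolic ribosomal proteins, 76 were lower and 1 higher before correction and 79 lower and 1 higher after it, beside 18.1% of all genes lower, with medians of -1.06 and -0.82. Their summed level was 34134 and 24265 FPKM in control and 13832 and 12411 FPKM in KD libraries, so the control libraries differed from each other by more than the KD libraries did. The median stayed between -1.03 and -0.60 (corrected) on leaving out any 1 library and was -0.55 under scaling to total reads, with 63 genes lower and 2 higher. RPL9, of the large subunit, stood at 74.1 and 56.8 FPKM in control and 29.4 and 31.5 FPKM in KD libraries, and fell, with log2 FC of -1.07 before and -1.73 ± 0.143 (adjusted p = 0.000508) after correction. RPS29, of the small subunit, fell (-1.14 and -1.78). RPL8, among the highest at 2296 and 1613 against 792 and 613 FPKM, fell (-1.46 and -0.53), and the second call was lost without the second KD library (-0.45) and under scaling to total reads (-0.25). Ribosomal protein genes have many near-identical pseudogenes, and how the authors' counting split such reads is not given in the sources used here.

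Mitochondrial ribosomal proteins, all encoded in the nucleus, had 60 of 78 genes lower and none higher after correction in limma (50 and 5 before), and a median of -0.49. Under scaling to total reads 36 were lower and 4 higher, with a median of -0.218. MRPL22 stood at 8.21 and 6.66 against 4.97 and 4.21 FPKM and fell (-0.59 and -1.18). MRPL12, among the 5 largest falls before correction, stood at 55.6 and 36.4 against 18.0 and 9.12 FPKM and fell (-1.73 and -0.88), a corrected call that was lost without the first control library (-0.74). Of 77 nuclear genes for subunits of the respiratory chain and ATP synthase, 67 were lower and 1 higher after correction (64 and 2 before), with medians of -0.80 before and -0.67 after, and 51 were lower and 1 higher under scaling to total reads. COX6A1, a subunit of cytochrome c oxidase, stood at 82.8 and 58.4 FPKM in control and 35.4 and 22.05 FPKM in KD libraries, with log2 FC of -1.28 and -1.89 ± 0.215 (adjusted p = 0.000988). ATP5F1B, the catalytic subunit of ATP synthase, stood at 442 and 390 against 244 and 232 FPKM and fell (-0.80 and -0.40), without a call under scaling to total reads (-0.11). The lower genes of this list had a median level of 40.9 FPKM in control and 23.7 FPKM in KD libraries.

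Most genes on the mitochondrial genome were higher. Its 13 coding genes had 9 higher and 1 lower after correction (10 and none before in limma), with medians of 0.86 and 0.62, and their summed level was 21091 and 19134 FPKM in control and 31684 and 33769 FPKM in KD libraries. MT-ND5, a subunit of complex I, stood at 333 and 408 against 962 and 957 FPKM and rose by 1.38 before and 1.23 (adjusted p = 0.000698) after correction. MT-RNR2, the large ribosomal RNA of mitochondria, stood at 807 and 820 against 1754 and 1988 FPKM and rose by 1.198 and 0.79. MT-ND3 was the exception, with 1802 and 1404 against 1308 and 1280 FPKM, not called before (-0.30, but called at -0.48 without the second control library) and lower, at -1.11, after correction. The mitochondrial genes were also higher with TNF-α in their median, by 0.44, with none called in limma there, and 2 of the 13 were called higher and 1 lower for the difference between conditions.

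**Figure D4:**
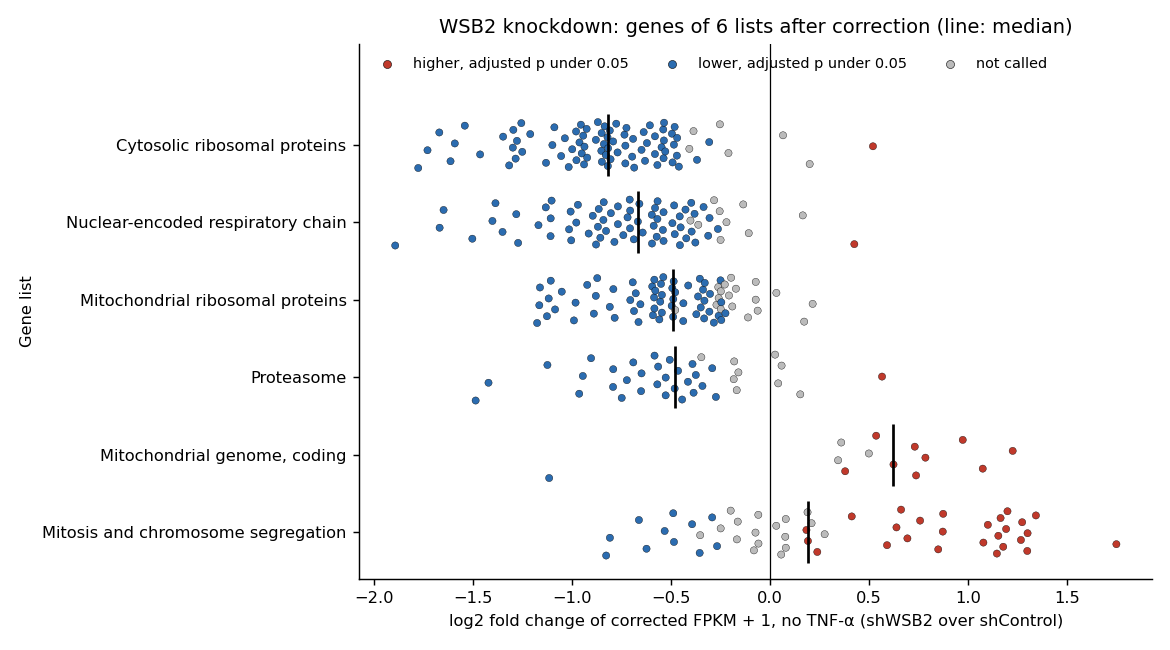
Log2 fold change of corrected FPKM + 1 without TNF-α (horizontal axis) for every tested gene of 6 lists (rows), coloured red where called higher, blue where called lower and grey where not called, with the median of each list as a line. Ribosomal, respiratory chain and proteasome genes lie mostly left of 0, mitochondrial coding genes mostly right of it, and mitosis genes spread from -0.83 to 1.75; under scaling to total reads the 6 medians keep their sign.

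The proteasome degrades ubiquitinated proteins. Of its 39 genes, 29 were lower and 1 higher after correction (24 and 7 before), beside 18.1% and 21.2% of all genes. The medians were -0.68 before and -0.48 after correction. It was -0.24 under scaling to total reads, where 18 were lower and 3 higher. PSMA5, a subunit of the core's outer ring, stood at 34.6 and 26.5 FPKM in control and 22.2 and 19.2 FPKM in KD libraries, with log2 FC of -0.53 and -1.49 (adjusted p = 0.000843). PSMB1, of the inner ring, stood at 129 and 93.1 against 63.4 and 59.1 FPKM and fell (-0.83 and -1.42). PSMB3 fell (-1.21 and -0.72). PSME4, the activator PA200 and one of the longest of these genes, was the one that rose, from 6.20 and 7.40 to 18.1 and 20.2 FPKM, by 1.37 and 0.57. The uncorrected call of PSMA5 was lost without the second KD library (-0.43) and under scaling to total reads (-0.26). Of 17 genes of MHC class I and antigen processing, 5 were lower and 1 higher after correction, and 10 and 2 before, but 3 lower and 5 higher under scaling to total reads. B2M, the light chain of class I, was not called before (-0.24, with 0.04 under scaling to total reads and a call at -0.36 without the second control library) and fell by 0.98 after correction, at 103 and 87.5 against 82.4 and 78.3 FPKM.

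Of 28 antioxidant and iron storage genes, 18 were lower in each reading and 6 and 3 were higher, with medians of -0.75 and -0.35, and 11 were lower and 5 higher under scaling to total reads. NQO1, a quinone reductase, stood at 89.9 and 74.7 FPKM in control and 42.2 and 40.3 FPKM in KD libraries and fell (-0.97 and -0.98). FTL, the light chain of ferritin, was the highest gene of the list at 4347 and 3361 against 1475 and 1601 FPKM and fell (-1.31 and -0.70). NFE2L2, the factor NRF2 that drives many of these genes, rose instead, from 3.75 and 4.84 to 10.1 and 12.1 FPKM, by 1.19 and 1.02 (adjusted p = 0.000684).

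Of 29 glycolysis and hypoxia genes, 12 were lower and 2 higher after correction (18 and 4 before), beside 18.1% and 21.2% of all genes. The list's median of -0.16 turned to 0.01 under scaling to total reads (5 higher and 7 lower). PGK1, phosphoglycerate kinase, stood at 148 and 142 against 85.6 and 84.4 FPKM and fell (-0.76 and -1.18) (adjusted p = 0.000336). ENO1, enolase, fell (-1.11 and -0.70). HIF1A, the hypoxia factor, rose from 13.6 and 18.98 to 46.1 and 53.8 FPKM, by 1.57 and 0.58, a corrected call that was lost without the second KD library (0.52). Of 25 genes of cholesterol synthesis and uptake 8 were lower and 1 higher after correction, with a median of -0.12 that turned to 0.14 under scaling to total reads (7 higher and 3 lower), and NSDHL, a sterol dehydrogenase, fell (-1.30 and -0.98). Of 25 genes of ER chaperones and the unfolded protein response 11 were lower and 4 higher, with a median of -0.19 that turned to 0.09 (8 higher and 6 lower). XBP1, a transcription factor of that response, stood at 52.8 and 49.1 against 32.2 and 34.4 FPKM and fell (-0.60 and -1.09), while DNAJC3, an ER co-chaperone, rose by 1.28 and 0.57. Of 29 genes of the integrated stress response 9 were lower and 4 higher, with a median of -0.12 that turned to 0.12 under the same scaling (12 higher and 3 lower), and PHGDH, the first enzyme of serine synthesis, fell (-1.09 and -0.93).

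MT2A had the largest fall of all genes before correction. Metallothioneins are small cysteine-rich proteins that bind zinc and copper, and metal induces them through the factor MTF1 at metal response elements (MREs) close to their start sites. The promoters of MT2A and MT1X, from the RefSeq sequence of GRCh38.p14 (250 bases before to 50 after the start), are shown because MT2A was called lower and its neighbour MT1X was not. MT2A lies at chr16:56608334-56608633 and MT1X at chr16:56682220-56682519, both on the plus strand, and capitals mark the MRE core, TGCACNC or TGCGCNC, on either strand.
MT2A: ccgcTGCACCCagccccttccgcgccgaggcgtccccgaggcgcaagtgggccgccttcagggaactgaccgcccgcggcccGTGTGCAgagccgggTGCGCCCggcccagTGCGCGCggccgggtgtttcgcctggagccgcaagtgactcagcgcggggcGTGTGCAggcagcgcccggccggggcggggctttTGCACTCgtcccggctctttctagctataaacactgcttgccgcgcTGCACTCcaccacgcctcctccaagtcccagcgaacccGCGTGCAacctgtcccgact
MT1X: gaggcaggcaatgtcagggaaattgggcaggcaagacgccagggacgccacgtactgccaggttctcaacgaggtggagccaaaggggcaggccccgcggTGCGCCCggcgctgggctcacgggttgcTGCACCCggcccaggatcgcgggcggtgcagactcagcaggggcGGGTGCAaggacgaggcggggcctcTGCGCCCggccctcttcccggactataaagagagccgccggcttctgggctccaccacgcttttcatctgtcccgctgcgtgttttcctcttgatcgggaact
The MT2A promoter held 8 matches, 5 forward and 3 reverse, and the MT1X promoter 4, 3 forward and 1 reverse. Of 35116 promoters of the same length 29.6% held at least 1 match and 0.601% at least 4. A match is a run of letters and not a measured site.

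MT2A (ENSG00000125148, chromosome 16, 56608199 to 56609497) stood at 620 and 398 FPKM in control and 82.7 and 80.1 FPKM in KD libraries. KD libraries lay far below both controls, which differed from each other more than the KD libraries did. The log2 FC was -2.60 ± 0.192 (adjusted p = 0.000124) before and -2.08 ± 0.138 (adjusted p = 0.000358) after correction. With TNF-α MT2A stood at 783 and 710 against 415 and 399 FPKM, a log2 FC of -0.86 (adjusted p = 0.0587), and the difference between conditions was -1.22 (adjusted p = 0.0079). Of 12 metallothionein genes, with the factor and the zinc exporter, 5 could be tested. Before correction 2 were higher and 2 lower, and after it 1 was higher and 1 lower. The 2 higher ones before correction were the factor MTF1 and the zinc exporter SLC30A1. The 1 gene higher after it stood at 2.89 FPKM in control and 4.67 FPKM in KD cells. MT1E stood at 190 and 123 against 109 and 107 FPKM, with log2 FC of -0.50 (adjusted p = 0.0453) before, a call lost without the first control library (-0.18) or either KD library (-0.51 and -0.49), and -0.02 after correction, where scaling to total reads turned the sign to 0.26. MT1X stood at 6.02 and 3.45 against 3.33 and 2.48 FPKM and was called in neither reading (-0.53 and -0.11, the latter 0.12 under scaling to total reads), but before correction it was called at -0.85 without the second control library. Metallothioneins are a family of close copies, and how reads that fit more than 1 of them were counted is not given in the sources used here.

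ACKR3 and COL3A1 fell both without and with TNF-α. ACKR3 (ENSG00000144476, chromosome 2, 236567787 to 236582358), a receptor that scavenges the chemokine CXCL12, stood at 19.2 and 17.9 FPKM in control and 7.06 and 6.93 FPKM in KD libraries, with log2 FC of -1.29 ± 0.114 before and -1.05 ± 0.104 (adjusted p = 0.000689) after correction. With TNF-α the levels were 5.54 and 6.95 against 1.64 and 1.88 FPKM (-1.38, adjusted p = 0.00796), and the difference between conditions was 0.33 (adjusted p = 0.149). Of 14 genes around this receptor 10 were tested, and 4 were lower and none higher after correction in limma (6 and 1 before), with a median of -0.20 that scaling to total reads turned to 0.05, where ACKR3 was the 1 gene left. ARRB1, β-arrestin 1, stood at 3.502 and 3.14 against 1.71 and 1.56 FPKM and fell (-0.72 and -0.35), a corrected call that was lost without the second KD library (-0.33) and under scaling to total reads (-0.15). COL3A1 (ENSG00000168542, chromosome 2, 188974320 to 189012746), the chain of type III collagen, stood at 7.27 and 7.07 against 2.35 and 2.03 FPKM, with log2 FC of -1.36 ± 0.11 before and -1.16 ± 0.106 (adjusted p = 0.000601) after correction. With TNF-α it was -1.28 (adjusted p = 0.0102), and the difference between conditions was 0.12 (adjusted p = 0.597).

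Of 31 collagen genes 26 were tested, 8 were higher and COL3A1 was the 1 lower gene after correction, with a median of 0.10. These and the next counts stand beside 21.2% higher and 18.1% lower of all genes after correction. Before correction 4 were higher and 9 lower, and under scaling to total reads 13 were higher and 1 lower. COL27A1, a fibrillar collagen, stood at 2.57 and 3.47 against 4.49 and 4.43 FPKM and rose by 0.45 before, a call that was lost without either KD library (0.44 and 0.46), and by 0.80 after correction. Of 40 tested genes of extracellular matrix and its remodelling 12 were lower and 5 higher after correction (22 and 6 before), and scaling to total reads gave 5 lower and 18 higher. P4HA2, which hydroxylates prolines of collagen, stood at 20.2 and 18.7 against 10.6 and 9.72 FPKM and fell (-0.87 and -0.89). SPARC, a collagen-binding protein of bone matrix, fell (-0.38 and -0.33), without a call when the second KD library was left out (-0.36 and -0.30) and under scaling to total reads (-0.09 and -0.05). Of 23 osteoblast genes 12 were tested, with 3 higher and 1 lower after correction (6 and 1 under scaling to total reads). BMP2, a bone morphogenetic protein, rose by 0.59 after correction (0.22 before, where it was called without the first control library, at 0.33), and MSX2, a homeobox factor of bone, stood at 6.93 and 6.01 against 3.25 and 4.06 FPKM and fell (-0.69 and -0.58).

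Of 36 target genes of NF-κB 33 were tested, 9 were higher and 3 lower after correction (10 and 12 before), beside 21.2% and 18.1% of all genes, and the median was 0.00. Under scaling to total reads 13 were higher and 1 lower, with a median of 0.155. Over all genes that scaling gave 6795 higher and 1433 lower of 16520, with a median of 0.198. NFKBIA, the inhibitor IκBα, stood at 24.7 and 20.01 against 16.3 and 14.4 FPKM, a log2 FC of -0.51 before and -0.02 (not called) after correction, and scaling to total reads turned the latter to 0.25. CXCL8, the chemokine interleukin 8, stood at 2.38 and 2.54 against 4.97 and 4.24 FPKM, higher before (0.69, adjusted p = 0.000556) and not called after correction (-0.14, adjusted p = 0.23, and 0.06 under scaling to total reads). With TNF-α it was higher by 1.51, and the difference between conditions was -1.65 (adjusted p = 0.00243). The CXCL8 transcript has 33.4% GC, near the low end of the range. BIRC2, an inhibitor of apoptosis that ubiquitinates proteins at the TNF receptor, stood at 4.27 and 5.30 against 17.6 and 18.6 FPKM and rose by 1.73 and 0.93 (adjusted p = 0.000581).

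Of 37 interferon-stimulated genes 34 were tested, 11 were higher and 4 lower after correction (15 and 6 before), beside 21.2% and 18.1% of all genes. The list's median was 0.17, and 20 were higher and 2 lower under scaling to total reads. SAMD9, a long antiviral gene, stood at 0.331 and 0.641 against 4.35 and 5.27 FPKM and rose by 1.97 and 1.201, and PARP14 rose by 1.54 and 0.91. IFITM2, a short antiviral membrane protein and among the 5 largest falls before correction, stood at 37.0 and 28.2 against 8.70 and 8.16 FPKM and fell (-1.82 and -1.25) (adjusted p = 0.000336). It was lower with TNF-α too (-0.95, adjusted p = 0.00753). IFITM2 has close relatives in its family, and reads shared among them could have been split.

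Of 17 tested genes of ERK output 9 were higher and none lower after correction in limma (5 and 5 before), with a median of 0.19 (12 and none under scaling to total reads). The counts of this paragraph after correction stand beside 21.2% higher and 18.1% lower of all genes. DUSP5, a phosphatase that feeds back on ERK, stood at 3.78 and 3.69 against 4.15 and 4.50 FPKM, was not called before (0.17) and rose by 0.73 (adjusted p = 0.00146) after correction. Of 27 immediate-early genes 9 were higher and 3 lower after correction and 3 and 16 before, so the median turned from -0.31 to 0.15, and 18 were higher and none lower in limma under scaling to total reads. EGR1, a zinc finger factor of that class, stood at 12.8 and 16.02 against 20.1 and 19.7 FPKM and rose by 0.45 and 1.07. Of 23 YAP targets and pathway genes 12 were higher and 4 lower after correction (11 and 6 before, 17 and none under scaling to total reads), with a median of 0.26, and TEAD1, the DNA-binding partner of YAP, stood at 5.44 and 10.4 against 30.3 and 35.5 FPKM and rose by 1.98 and 1.14. Of 23 BMP and TGF-β genes 10 were higher and 2 lower (15 and 1 under scaling to total reads), with TGFBR2, the type II receptor, higher by 0.78 and 0.84 and ID3, an inhibitor of helix-loop-helix factors, lower (-1.16 and -0.44).

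Of 28 tested p53 targets, 10 were higher and 8 lower after correction (11 and 12 before), beside 21.2% and 18.1% of all genes. Under scaling to total reads 16 were higher and none lower in limma, with a median of 0.384. MDM2, the ubiquitin ligase of p53, stood at 2.40 and 3.57 against 9.91 and 11.1 FPKM and rose by 1.55 and 0.76, whereas AEN, an exonuclease, fell (-0.69 and -0.47), a corrected call that scaling to total reads took away (-0.20). CDKN1A, the cell cycle inhibitor p21, stood at 94.5 and 84.0 against 53.9 and 51.3 FPKM, lower before (-0.75) and not called (0.03) after correction, where scaling to total reads gave a called rise of 0.31. Of 20 genes of the BCL2 family 9 were lower and none higher after correction in limma (10 and 3 before), with a median of -0.20 that turned to 0.05 under scaling to total reads (3 higher and none lower). BAD, a promoter of cell death, stood at 33.3 and 22.3 against 10.9 and 7.25 FPKM and fell (-1.51 and -0.61). Its corrected call was lost without the first control library (-0.50), without the second KD library (-0.43) and under scaling to total reads (-0.35).

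Of 31 genes for SR proteins, hnRNPs and splicing kinases, 17 were higher and 3 lower before correction and 10 higher and 13 lower after it, and the median went from 0.37 to -0.20, though scaling to total reads turned the latter to 0.07 (13 higher and 10 lower). SRSF3, a splicing factor, stood at 56.6 and 46.8 against 46.2 and 44.8 FPKM, was not called before (-0.17, with 0.10 under scaling to total reads and a call at -0.31 without the second control library) and fell by 1.09 after correction. PNISR, a nuclear SR-rich protein, stood at 1.10 and 1.29 against 6.06 and 6.70 FPKM and rose by 1.75 and 0.78. Of 251 zinc finger genes of chromosome 19, a cluster of mostly repressive factors, 195 were tested, and 126 were higher and 20 lower before and 73 higher and 3 lower after correction (116 and none under scaling to total reads). ZNF146 stood at 6.39 and 7.25 against 25.1 and 25.7 FPKM and rose by 1.76 and 1.24. Of 70 replication-dependent histone genes 29 were tested, with 7 lower and 1 higher after correction and a median of -0.14 (0.07 under scaling to total reads, with 4 lower and 3 higher), and HIST1H1C, a linker histone, stood at 994 and 696 against 304 and 283 FPKM and fell (-1.5004 and -0.86). These mRNAs largely lack a poly(A) tail, and their level in such libraries also depends on how RNA was selected. Of 39 HOX genes 29 were tested and 2 were higher and 2 lower after correction (14 and none under scaling to total reads), HOXB6 rising by 0.44 and 0.96, with its uncorrected call lost without the first KD library (0.37).

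By annotated class, 2702 protein-coding genes were higher and 2709 lower after correction, of 13500 tested. Of 1862 tested long intergenic and antisense RNAs 448 were higher and 131 lower, and of 994 tested pseudogenes 298 were higher and 137 lower, with medians of 0.10 and 0.14. The filter asked for 10 reads in 2 libraries, so a scarce gene could pass through the KD libraries alone. Among genes with a mean of at least 1 FPKM, 131 of 701 such long RNAs were higher and 100 lower. Of 547 pseudogenes at that level 123 were higher and 127 lower, beside 2312 and 2837 of all 11622 genes. Counting is not stated to use the strand, so an antisense RNA and its partner cannot be told apart. A further limit asked for a call in the same direction and an absolute log2 FC above 1 in both readings, with no overlap of libraries. This left 202 higher and 67 lower of 16520 genes. Absence of overlap was met by 79.8% of all tested genes (6621 higher and 6564 lower), so by itself it is a weak condition. The 202 higher genes were 122 protein-coding genes, 41 pseudogenes, 29 long noncoding and 10 others. The 67 lower genes were 46 protein-coding, 18 pseudogenes, 2 long noncoding and 1 other, with 15 for ribosomal proteins and 8 for pseudogenes of these. Among the largest rises after correction were processed pseudogenes, whose reads a parent gene may share. The highest log2 FC was 3.21 among long intergenic and antisense RNAs and 1.84 among protein-coding genes. TUFMP1 stood at 1.39 and 3.73 against 20.4 and 26.96 FPKM, a log2 FC of 3.38 ± 0.333, and KLF2P1 at 0.384 and 0.943 against 8.72 and 8.30 FPKM, a log2 FC of 3.24. Neither was called with TNF-α. The largest falls after correction included MIR1244-2 (-3.04), an entry of 85 bases with near-identical copies elsewhere in the genome, RPL9P9 (-1.80), a pseudogene of RPL9, and DMAC1, an assembly factor of complex I, at 20.2 and 14.4 against 7.40 and 6.61 FPKM (-1.69).

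The response to WSB2 knockdown without TNF-α differed from that with TNF-α in size. With TNF-α 41 genes (0.248%) were higher and 18 (0.109%) lower after correction. The difference of the knockdown effect between the conditions, as an interaction in the same fit, was called above 0 for 1768 genes (10.7%) and below 0 for 1725 (10.4%). Without the second KD library it was called for 1351 genes in all and without the second control library for 5634, against 3493 with all libraries. It was called for 183 of the 202 higher and 53 of the 67 lower genes just described. Those genes were chosen for a large change without TNF-α, which is part of the difference, so a high share was built in. Of 86 ribosomal protein genes 61 were called below 0, of 77 respiratory chain genes 48, of 39 proteasome genes 23 and of 54 mitosis genes 23 above and 7 below 0.

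A small set was called the same way in both conditions. Of the 18 genes lower with TNF-α, 16 were lower without it (88.9% of the former, 0.536% of the lower genes without TNF-α), and of the 41 higher genes, 23 were higher without it (56.1% and 0.657%), while 3 were lower. The comparisons share no libraries, though they share the estimate of the spread. Among the 16 lower genes were WSB2, ACKR3, COL3A1, IFITM2 and PTMA, prothymosin α, which stood at 349 and 308 against 141 and 136 FPKM and fell, with log2 FC of -1.24 before and -1.08 after correction. Its change with TNF-α was -0.72 (adjusted p = 0.0112). Of these 16 genes 15 were also lower before correction, against 8 of the 23 higher genes. Of the 23, ESM1, a proteoglycan of endothelial and tumour cells, stood at 0.371 and 0.386 against 1.70 and 1.33 FPKM and rose by 0.53 without and 1.14 with TNF-α. The value was the larger one with TNF-α in 20 of the 23, genes that had to be called in that comparison to be listed, and the difference between conditions was called for 3 of the 23.

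**Figure D5:**
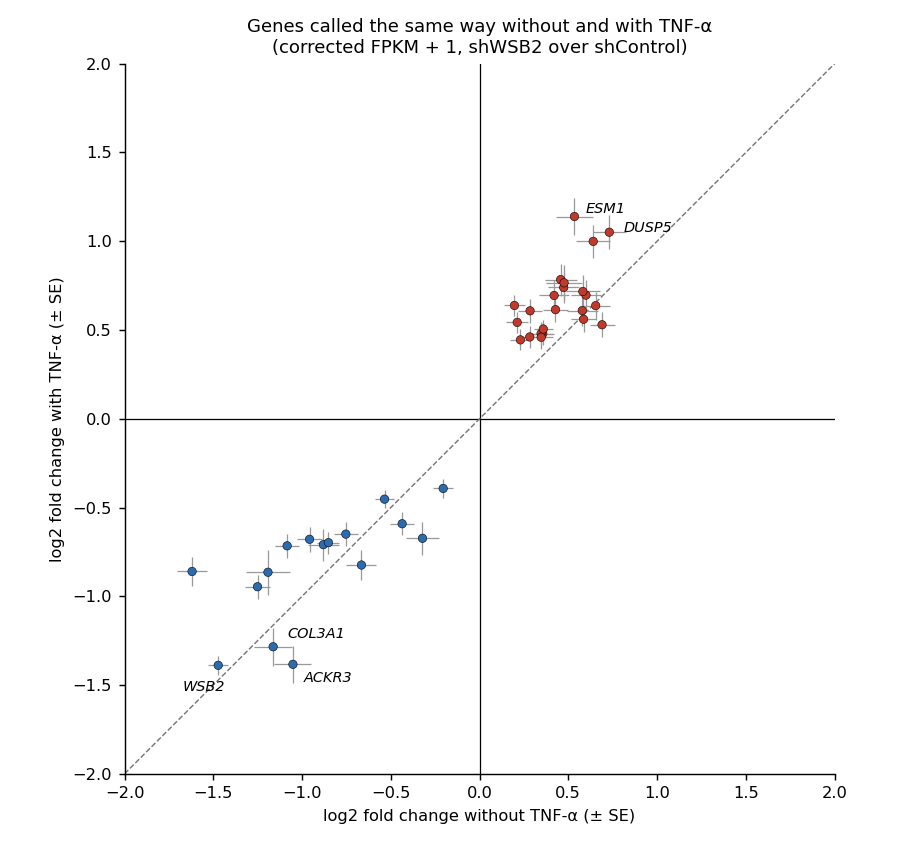
Log2 fold change of corrected FPKM + 1 without TNF-α (horizontal axis) and with TNF-α (vertical axis), with standard errors as bars, for the 39 genes called in the same direction in both; red points are higher and blue points lower in KD cells, and the dashed line marks equal change. WSB2, ACKR3 and COL3A1 lie below -1 on both axes, and 20 of the 23 higher genes lie above the dashed line, the difference between conditions being called for 3 of them.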

How the data were processed

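RNA-seq libraries of U2OS cells came from Novogene. Per the labels' processing notes, the authors demultiplexed with CASAVA 1.8, trimmed with fastp, aligned to GRCh38 with HISAT2 2.0.5 and counted reads with featureCounts 1.5.0-p3, and DESeq2 1.20.0 is named too. The deposited values are FPKM per gene. FPKM times gene length gave whole reads for 100% of values (within 0.02 reads), scaled by median-of-ratios size factors. Use of the strand is not given in the sources used here.

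Genes with at least 10 reads at median depth in 2 libraries and 15 reads in all were kept. Log2(FPKM + 1) was fitted with limma 3.58.1 (R 4.3.3, trended variances, 4 group means over 8 libraries), and p-values were adjusted over all genes tested. A count model was not used because the deposited unit is FPKM. The correction divided the FPKM of each library by the trend of its reads on splines (5 degrees of freedom each) of GC content and log2 length, and 8 genes without GC content were left out. Dividing on the linear scale was adopted after a trial on simulated data. Alternatives covered the pseudocount, filter, scaling, libraries, correction and a voom fit. Tables and plots were made with Python 3.11.15, numpy 2.4.6, pandas 2.3.3 and matplotlib 3.10.9.

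The members and lists were chosen with earlier results of these data known. Named genes were drawn from the 5 marker genes and the 10 largest rises and falls after correction among genes called in both readings. The 5 largest before correction were candidates too, as were the 2 highest genes of each list and its largest called rise and fall. All tested members of lists of up to 12 were candidates as well. Not every candidate is given in the text. CCNB1, CENPE, COL1A2, ESM1, NEDD8, PARP14, PHGDH, PSMB1, PTMA, RNF7, SETD7, TOP2A, TPR and WSB1 were chosen after their values were seen.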

Additional observations from a re-analysis of the deposited data

Results flagged for a closer look

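The knockdown effect without TNF-α differed from that with TNF-α, by the limma interaction after correction, above 0 for 1768 genes and below 0 for 1725. For CENPF the difference was 2.00 on the log2 scale and for MT2A -1.22. Among the other genes with the largest rises without TNF-α, 10 had a difference called above 0, and among those with the largest falls 9 had one called below 0. Such genes were picked by the change without TNF-α, which is part of the difference, so a high share was built in. The unstimulated KD libraries are also those that stood apart in GC content, size factor and mitochondrial share, and the part of these in the differences was not tested.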

How the results depend on the processing

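The fall of WSB2 kept its direction and call in every alternative run (-1.72 to -1.36 before and -1.57 to -1.22 after correction; -1.62 to -1.60 and -1.48 to -1.46 on leaving out 1 library). Counts of higher and lower genes before correction stayed within 1.5 times. After correction, higher genes numbered 2159 with a mean of at least 1 FPKM, 6795 under scaling to total reads and 2322 with the 4 unstimulated libraries alone (1829 to 4071 on leaving out 1 library), and lower genes 1433 under scaling to total reads, 1977 with the 4 libraries, 4993 with correction for length alone and 4552 with the trend subtracted on the log scale (1665 to 3465). With a mean of at least 1 FPKM, 3193 genes were lower after correction. Subtraction on the log scale was the first form of the correction, and it was kept as an alternative after the change to division. Both it and GC content and length of the main mRNA were added to the alternatives after seeing the data.

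With an absolute log2 FC above 1, higher genes before correction numbered 2593 with a pseudocount of 0.1, 1827 under scaling to total reads and 2963 with voom, and lower genes 1344, 205 and 1431 (311 without the first control library to 1419 without the second). After correction these were 1173, 592 and 1503 higher and 439, 88 and 504 lower, with 944 and 510 for length alone, and 189 to 432 and 110 to 451 on leaving out 1 library. The difference between conditions was called for 7745 genes with length alone and 5835 with the logged trend (1351 to 5634 on leaving out 1 library).

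Correction for length alone turned CDKN1A to -0.49, COL1A1 to -0.88, COL27A1 to -0.023, CXCL8 to 0.93, KRT14 to -0.32 and SPC25 to 0.11. The logged trend turned CDKN1A to -0.22, a trend from protein-coding genes MT1E to 0.32 and scaling to total reads NFKBIA to 0.25. The cause was not tested.

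Replicate numbers name no shared source, and there are only 2 pairs. Deviations of same-numbered control and KD libraries correlated across genes at 0.35 before and 0.214 after correction, and those of the other pairs of groups at -0.191 to 0.0166 before it. With a replicate block, 4859 genes were higher and 4902 lower before and 3349 and 2853 after correction. Depth in FPKM below 1 limits the log2 FC of scarce transcripts.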
